A study of Homo sapiens with 9 samples.

Results

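The genes described here are 9 immediate early genes: the zinc finger factors EGR1, EGR2 and EGR3, the nuclear receptors NR4A1, NR4A2 and NR4A3, the small early response genes IER2 and IER3, and SRF, which encodes serum response factor. They were taken by gene symbol from a list written for this description, and all 9 were found among the 15570 genes of the deposited table. The 9 libraries were made from hCMEC/D3, 1 immortalised line of human brain microvascular endothelial cells that serves to model the blood-brain barrier in culture. The cells formed 3 groups of 3 libraries. Control cells had no deprivation. OGD cells stood for 4 h in medium without glucose under 95% N2 and 5% CO2 (oxygen and glucose deprivation). OGD/R cells had the same 4 h and were then returned for 16 h to normal medium and an atmosphere of 21% O2 and 5% CO2. Medium changes and time in culture of the control cells are not described, so fresh medium, handling and reoxygenation cannot be told apart.

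Immediate early genes are transcribed within minutes of a stimulus, without new protein synthesis. Growth factors, serum and stress signals reach many of them through the ERK kinases, which phosphorylate ELK factors that sit beside SRF on CArG boxes, an A- and T-rich core between CC and GG. SRF also works with the actin-regulated coactivators MRTFA and MRTFB. Cyclic AMP and calcium signals act through CREB on elements with the core TGACG, a route well known for the NR4A genes. The EGR proteins bind GC-rich DNA, are held in check by the co-repressors NAB1 and NAB2, and in endothelial cells EGR1 is known to drive tissue factor and growth factor genes. The NR4A receptors act without a known hormone ligand. IER3 is a short membrane-associated protein linked to cell survival, and IER2 is a nuclear regulator.

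Upstream sequence is shown for EGR1 and SRF, whose windows hold CArG boxes, for EGR2, whose window also holds one although its RNA was close to 0, and for IER2, whose window holds none. Each window is the 250 bases before a RefSeq start site on GRCh38.p14, read 5′ to 3′ on the gene's strand. The capitals mark CArG boxes and TGACG on either strand.
EGR1, chr5:138465229-138465478, plus strand: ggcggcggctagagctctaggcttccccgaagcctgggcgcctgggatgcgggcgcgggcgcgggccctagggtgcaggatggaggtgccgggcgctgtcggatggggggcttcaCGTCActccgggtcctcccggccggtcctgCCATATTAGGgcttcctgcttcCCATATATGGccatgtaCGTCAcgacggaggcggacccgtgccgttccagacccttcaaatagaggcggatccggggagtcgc
SRF, chr6:43171019-43171268, plus strand: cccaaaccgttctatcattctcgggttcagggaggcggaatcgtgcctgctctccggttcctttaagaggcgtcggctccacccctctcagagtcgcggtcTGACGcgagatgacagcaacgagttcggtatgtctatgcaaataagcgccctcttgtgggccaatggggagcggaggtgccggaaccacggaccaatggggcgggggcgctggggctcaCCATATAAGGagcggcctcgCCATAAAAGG
EGR2, chr10:62816367-62816616, minus strand: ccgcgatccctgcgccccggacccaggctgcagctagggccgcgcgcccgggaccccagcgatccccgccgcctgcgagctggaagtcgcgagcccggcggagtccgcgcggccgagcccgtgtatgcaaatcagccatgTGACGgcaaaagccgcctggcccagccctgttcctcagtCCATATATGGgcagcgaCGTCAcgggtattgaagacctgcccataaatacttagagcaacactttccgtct
IER2, chr19:13150161-13150410, plus strand: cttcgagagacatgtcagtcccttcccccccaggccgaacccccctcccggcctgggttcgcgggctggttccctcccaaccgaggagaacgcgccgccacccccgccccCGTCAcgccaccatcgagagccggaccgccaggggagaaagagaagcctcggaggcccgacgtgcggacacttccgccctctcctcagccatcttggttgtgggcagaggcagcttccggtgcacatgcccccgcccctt

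The table of RefSeq windows matched 6 of the 9 genes, with 10 windows in all, since EGR2, NR4A1 and SRF have several start sites. NR4A2, IER3 and EGR3 were not matched. In EGR1 the 2 CArG boxes lie 105 to 96 and 83 to 74 bases before the start site, and in SRF they lie 30 to 21 and 10 to 1 bases before it. The third EGR2 window holds 1, at 71 to 62 bases. Over 34943 windows of the same length, searched on both strands, 1.16% held at least 1 CArG box and 0.0315% held 2 or more. TGACG was found in 5 of the 10 windows, 1 for each of 5 genes, where 21.2% of all windows hold at least 1. The window of NR4A3 held 4 matches, and those of EGR1 and EGR2 held 2 each. The full element TGACGTCA, the AP-1 site TGAGTCA and the NR4A monomer site AAAGGTCA were in none of the 10 windows, against 1.63%, 4.22% and 1.04% of all windows. GCGNGGGCG, the EGR consensus, was in 2 of the 10 windows, 1 each of EGR1 and SRF (8.39% of all windows). The ETS core CCGGAA was in 3 of the 10, 1 each of NR4A1, IER2 and SRF (14.5% of all windows). A match describes these letters only, and their absence from a window says nothing about a factor.

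Across the series, values are FPKM (fragment counts scaled by transcript length and library size). Read depth cannot be recovered from them, and no counting interval is given. FPKM summed to between 442696 and 605818 per library, highest in OGD. Control replicate 3 lay apart from the other controls, toward OGD, on the first principal component (7.05 against -14.5 and -9.97). OGD libraries had 41.6 to 46.2 and OGD/R libraries -47.1 to -30.2 on this axis, which held 70.1% of the variance. Values also followed transcript length. Their slope per doubling of length, relative to the mean of all libraries, ran from -0.131 to -0.0975 for OGD, -0.0445 to 0.0331 for control and 0.0857 to 0.146 for OGD/R, and its part in the results was tested only by removing it. Of 14 endothelial markers, 5 reached 1 FPKM in at least 3 libraries (PECAM1, CDH5, ENG, MCAM and ROBO4), while VWF, CLDN5, TEK, KDR and ERG stayed at or below 0.191 FPKM. The summed endothelial markers ran from 29.2 to 32.4 FPKM in OGD, below control (38.3 to 50 FPKM), and from 93.4 to 112 FPKM in OGD/R. MCAM (19.9 to 64.9 FPKM over all libraries) and ENG (6.11 to 38.0 FPKM) carried most of this sum. PECAM1 and CDH5 stayed at or below 2.62 FPKM, and MCAM in OGD overlapped control. Of 8 pericyte and smooth muscle markers 4 reached that level, and their sum ran from 4.10 to 5.37 FPKM in OGD, 6.59 to 11.5 with control and 14.4 to 16.3 with OGD/R. The leukocyte, glial and neuronal, and epithelial lists had 1 gene each at that level (CD14, MBP and MUC1). Their sums ran from 0.909 to 2.78, from 6.60 to 9.98 and from 1.07 to 10.1 FPKM over all libraries, with the leukocyte and epithelial sums highest in OGD/R. The part of these markers in the results was not tested, and in bulk RNA fewer cells of a type and less RNA per cell cannot be told apart.

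EGR1 was low after deprivation and highest after reoxygenation. EGR1 read 36.7, 32.4 and 24.7 FPKM in control replicates 1 to 3, 9.35, 9.30 and 7.83 in OGD, and 68.0, 83.9 and 77.4 in OGD/R. None of the 3 groups overlapped another, and control replicate 3 was the lowest control. The group means ± SD were 31.3 ± 6.08, 8.83 ± 0.866 and 76.4 ± 8.02 FPKM (n = 3 each), so the mean in OGD was 3.55-fold below control and that in OGD/R 8.66-fold above OGD. On the log2(FPKM + 1) scale used for the limma tests, which understates the change of low genes, EGR1 fell by 1.70 in OGD (SE 0.138, limma adjusted p = 3.66e-06). It rose by 2.98 from OGD to OGD/R (SE 0.138, adjusted p = 2.58e-08). Only 4 of 10818 genes tested had a larger rise in that comparison. OGD/R also exceeded control, by 1.27 (SE 0.138, adjusted p = 4.87e-05).

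**Figure D1:**
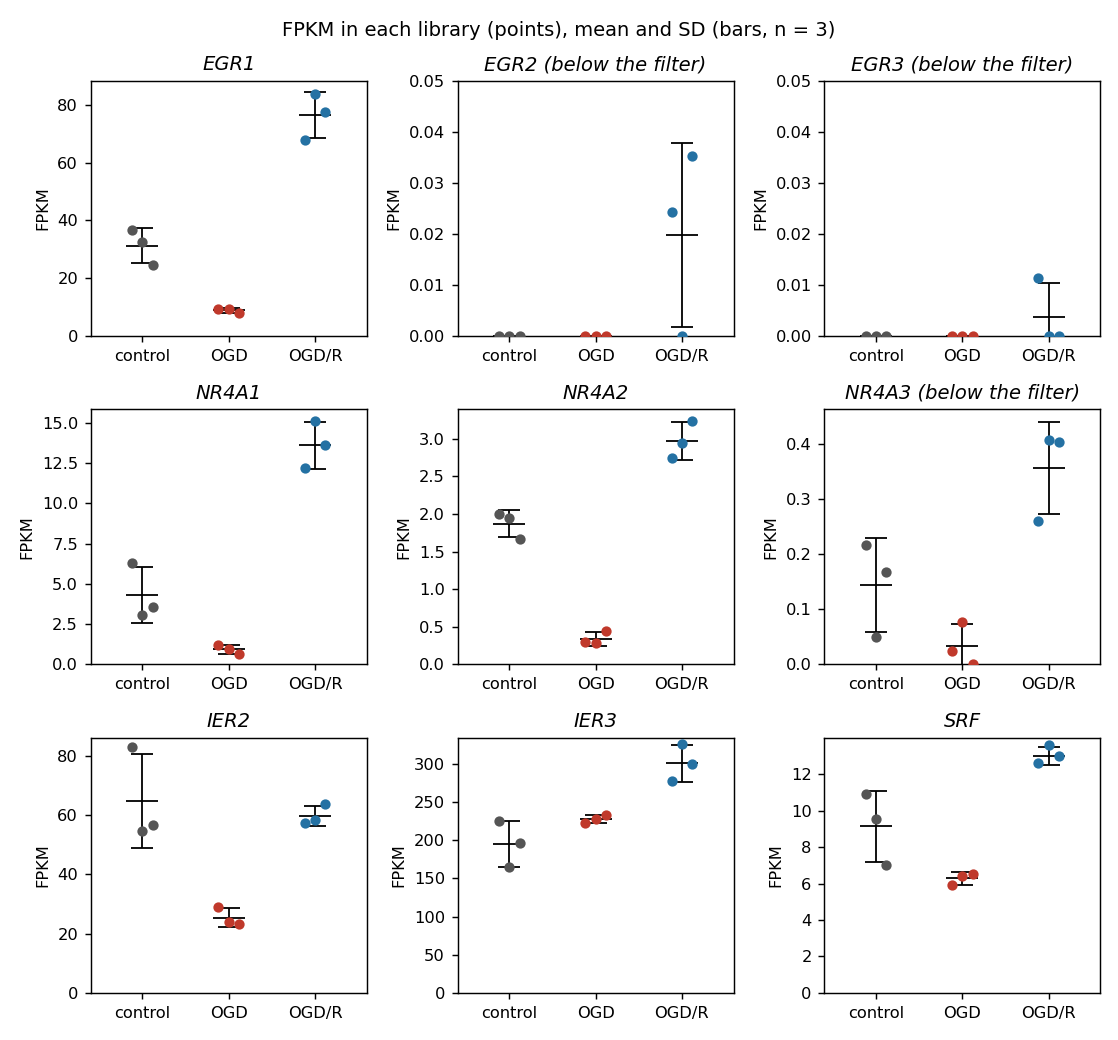
FPKM of the 9 genes in each of the 9 libraries (points, by group on the x axis), with mean and SD (bars, n = 3); every y axis starts at 0, which hides the lower end of some SD bars. OGD is lowest and OGD/R highest for EGR1, NR4A1, NR4A2 and SRF, IER2 returns to the control range, IER3 in OGD reaches into the control range, and EGR2 and EGR3 stay below 0.05 FPKM.

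The other EGR genes were listed at or near 0. EGR2, known for its role in myelination and immune cells, was listed at 0 in all 6 control and OGD libraries and at 0.0243, 0 and 0.0352 FPKM in OGD/R replicates 1 to 3. EGR3 was listed at 0 in 8 libraries and at 0.0113 FPKM in OGD/R replicate 1. Neither passed the filter of at least 1 FPKM in at least 3 libraries, so neither was tested, and no fold change is given.

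NR4A1 and NR4A2 had the same order of groups as EGR1, at lower levels. NR4A1 (Nur77) read 6.31, 3.08 and 3.56 FPKM in control, 1.21, 0.971 and 0.662 in OGD, and 12.2, 15.1 and 13.6 in OGD/R. Its groups did not overlap, and control replicate 1 was the highest control. It fell by 1.41 in OGD (SE 0.201, limma adjusted p = 0.000162), a 4.55-fold difference in mean FPKM. NR4A1 rose by 2.91 from OGD to OGD/R (SE 0.201, adjusted p = 2.84e-07), a ratio of 14.4 in mean FPKM and the largest such ratio among the 6 genes tested. It ended 1.51 above control (SE 0.201, adjusted p = 0.000163).

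NR4A2 (Nurr1) read 2.0, 1.95 and 1.67 FPKM in control, 0.293, 0.285 and 0.446 in OGD, and 2.74, 2.94 and 3.24 in OGD/R. The groups again did not overlap, but the gene passed the filter through its control and OGD/R libraries alone. It fell by 1.10 in OGD (SE 0.124, limma adjusted p = 3.51e-05) and rose by 1.57 in OGD/R against OGD (SE 0.124, adjusted p = 6.99e-07). Because its values are near the pseudocount of 1, these numbers understate the change, and a pseudocount of 0.1 gave -2.17 and 2.82. In mean FPKM its fall in OGD was 5.48-fold. The excess of OGD/R over control was small (0.47, SE 0.124, adjusted p = 0.00993). Quantile normalization (0.27, adjusted p = 0.0544) and leaving out OGD/R replicate 3 (0.42, adjusted p = 0.0514) each ended that call, and over its 16 alternatives adjusted p ran from 0.00585 to 0.0544.

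NR4A3 (NOR1) stayed below the filter and was not tested. It read 0.216, 0.0493 and 0.167 FPKM in control, 0.0235, 0.0769 and 0 in OGD, and 0.260, 0.406 and 0.402 in OGD/R. The OGD/R values lay above all others, whereas those of OGD and control overlapped. At these levels the values may rest on few fragments, and the depth behind them is unknown.

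The IER genes each departed from the pattern of EGR1 in a different comparison. IER2 read 82.9, 54.7 and 56.5 FPKM in control, 28.9, 24 and 23.2 in OGD, and 57.3, 58.2 and 63.6 in OGD/R. OGD lay below both other groups, and the OGD/R values fell within the control range. IER2 fell by 1.30 in OGD (SE 0.144, limma adjusted p = 3.22e-05) and rose by 1.21 from OGD to OGD/R (SE 0.144, adjusted p = 1.33e-05). OGD/R against control was not called (-0.09, 95% confidence interval -0.40 to 0.22, adjusted p = 0.644), and the sign turned without control replicate 1, the highest control (0.10, adjusted p = 0.483). Over the 16 alternatives adjusted p for this comparison ran from 0.262 to 0.860.

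IER3 was the most abundant of the 9 genes in every group. It read 225, 165 and 196 FPKM in control, 222, 228 and 233 in OGD, and 278, 326 and 300 in OGD/R. OGD overlapped the control range through control replicate 1, and OGD/R lay above both. OGD against control was not called on the deposited scale (0.23, 95% confidence interval -0.01 to 0.47, limma adjusted p = 0.0916). It was called higher in OGD after median-of-ratios scaling (0.60, adjusted p = 0.00102), after removal of the length trend (0.42, adjusted p = 0.00430) and without control replicate 1 (0.34, adjusted p = 0.0219), within a range of 0.00102 to 0.5 over 16 alternatives. Without control replicate 2, the lowest control, the difference was 0.12 (adjusted p = 0.316), and after quantile normalization it was 0.10 (adjusted p = 0.5). No alternative called IER3 lower in OGD.

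IER3 rose by 0.40 from OGD to OGD/R (SE 0.111, limma adjusted p = 0.00634), which is 0.01 above the median of all genes tested. After median-of-ratios scaling the difference was -0.07 (adjusted p = 0.562), after quantile normalization it was 0.73 (adjusted p = 0.000218), and with the length trend removed it was 0.24 (adjusted p = 0.0408). Adjusted p ran from 0.000218 to 0.562 over its 16 alternatives. Against control, OGD/R was higher by 0.63 (SE 0.111, adjusted p = 0.000914), and this call held under all 16 alternatives (0.52 to 0.83).

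SRF, which binds CArG boxes, had the smallest called fall in OGD. It read 10.9, 9.52 and 6.99 FPKM in control, 5.90, 6.42 and 6.52 in OGD, and 12.6, 13.6 and 13.0 in OGD/R. The groups did not overlap, though control replicate 3 came close to OGD. SRF fell by 0.46 in OGD (SE 0.140, limma adjusted p = 0.0142), or by 0.15 relative to the median of all genes tested. SRF was not called under median-of-ratios scaling (-0.13, adjusted p = 0.375), nor under quantile normalization (-0.06, adjusted p = 0.655). It was not called either with the length trend taken out (-0.01, adjusted p = 0.958) or without control replicate 1 (-0.33, adjusted p = 0.0556). Its adjusted p ran from 0.000757 to 0.958 over 16 alternatives.

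SRF rose by 0.95 from OGD to OGD/R (SE 0.140, limma adjusted p = 6.95e-05). With median-of-ratios scaling the rise was 0.53 (adjusted p = 0.00229), with quantile normalization 0.45 (adjusted p = 0.00386), and with the length trend removed it was not called (0.25, adjusted p = 0.0697, the highest of 16 alternatives that began at 7.23e-06). Against control, OGD/R was 0.49 higher (SE 0.140, adjusted p = 0.0146). That call was lost with the length trend removed (0.24, adjusted p = 0.0983) and without OGD/R replicate 2 (0.46, adjusted p = 0.0505), in a range of 0.00402 to 0.0983.

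Counted over the 6 genes that were tested, 5 were lower and 0 higher in OGD than in control at an adjusted p under 0.05. Among all 10818 genes tested, 58.0% were called in that comparison, 46.7% lower and 11.3% higher. In OGD/R against OGD all 6 were called higher, where 70.7% of all genes were called and 53.3% were called higher. Against control, 5 were higher and 0 lower in OGD/R, with 41.2% of all genes called and 24.7% higher. Shares this high among all genes make a call alone uninformative about these 6. With a change of at least 1 on the log2 scale required as well, 4 of the 6 were lower in OGD (EGR1, NR4A1, NR4A2 and IER2), against 4.63% of all genes lower, 1.56% higher and 6.19% either way. The same 4 were higher by that much in OGD/R than in OGD, against 17.0% of all genes higher, 3.52% lower and 20.5% either way. EGR1 and NR4A1 were higher by that much in OGD/R than in control, against 3.04% of all genes higher, 0.444% lower and 3.48% either way. These counts hold for the deposited scale. In OGD, NR4A2 and IER2 fell short of 1 with median-of-ratios scaling (-0.96 and -0.94) and with the length trend removed (-0.84 and -0.98). With quantile normalization NR4A2 fell short (-0.84) but IER2 did not (-1.12). The rise of IER2 from OGD to OGD/R was 0.75 with median-of-ratios scaling and 0.80 with the length trend removed. EGR1 had the 23rd largest fall in OGD and NR4A1 the 72nd, with IER2 128th and NR4A2 324th of 10818, whereas SRF was 3946th from the lowest. Such ranks rest on the pseudocount of 1, which understates the change of low genes. By mean FPKM the order differed: the fall was 5.48-fold for NR4A2, 4.55-fold for NR4A1, 3.55-fold for EGR1 and 2.55-fold for IER2. In the rise from OGD to OGD/R, EGR1 was 5th, NR4A1 7th, NR4A2 413th, IER2 1130th, SRF 2066th and IER3 5357th from the highest. The 3 comparisons share libraries, so a low OGD value enters the first pair of them with opposite signs.

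**Figure D2:**
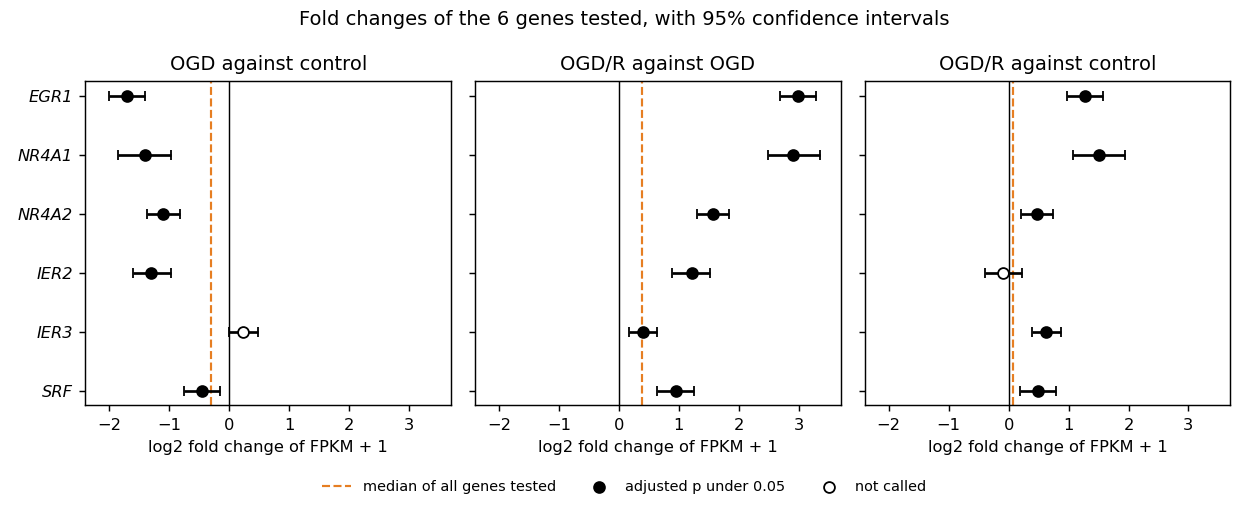
Log2 fold change of FPKM + 1 (x axis) of the 6 genes tested in the 3 comparisons, with 95% confidence intervals; filled points have an adjusted p under 0.05 and the dashed line is the median of all genes tested (-0.31, 0.39 and 0.07). On this scale EGR1 and NR4A1 lie farthest from that line in all panels. With a pseudocount of 0.1, NR4A2 had the largest fall in OGD (-2.17, beside -2.04 for NR4A1 and -1.8 for EGR1). IER3 from OGD to OGD/R lies on the line, a rise that turned to -0.07 with median-of-ratios scaling.

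The balance of all calls depended on scaling, which bears on the small changes above. The other scalings bring the median change of all genes to between -0.03 and 0. Their near-even splits therefore follow from the scaling itself and do not tell which scale is right. In OGD against control, 1218 genes were higher and 5054 lower on the deposited scale, against 2863 and 2495 with median-of-ratios scaling, 2166 and 2427 with quantile normalization, and 2495 and 2479 with the length trend removed. OGD/R against OGD had a split of 5770 and 1878, which became 3525 and 3704, 3399 and 3386, and 3322 and 3419 in the same order. OGD/R against control went from 2673 and 1787 to 2393 and 2493, 2394 and 2504, and 2375 and 2392. After subtraction of the median of all genes tested, EGR1 was at -1.39, NR4A1 at -1.10, IER2 at -0.99, NR4A2 at -0.79, SRF at -0.15 and IER3 at 0.54 in OGD against control. The calls of EGR1 and NR4A1 held under all 16 alternatives in all 3 comparisons, though some alternatives can change only the adjusted p. Those of IER2 and NR4A2 held in OGD against control and in OGD/R against OGD.

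**Figure D3:**
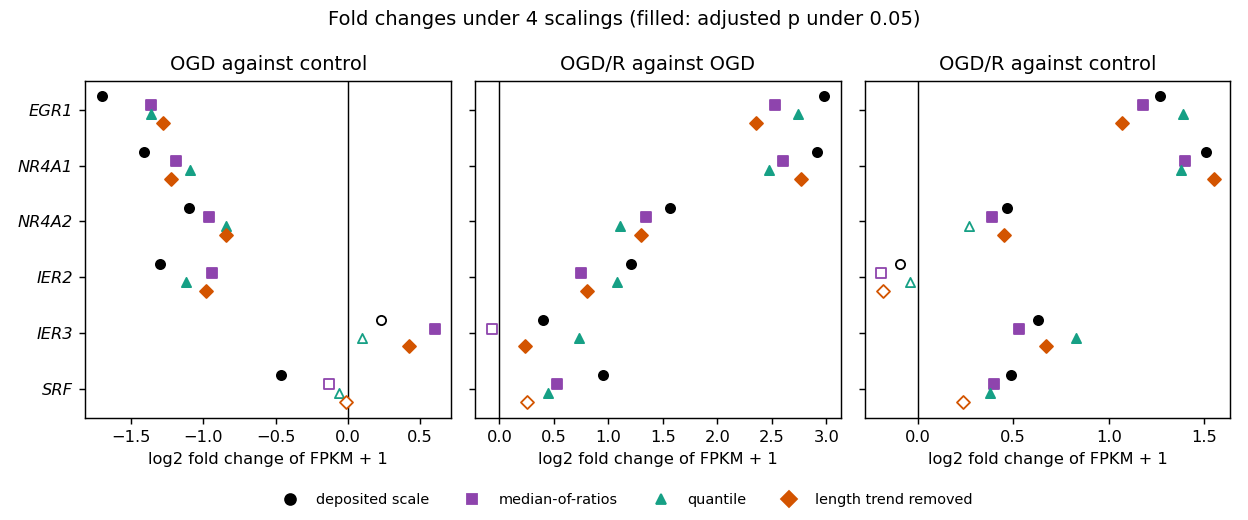
Log2 fold change (x axis) of each gene tested on the deposited scale and under 3 other scalings, by comparison; filled symbols have an adjusted p under 0.05. EGR1, NR4A1, NR4A2 and IER2 keep their side in the first pair of panels, SRF in OGD against control moves from -0.46 to between -0.13 and -0.01, and IER3 from OGD to OGD/R ranges from -0.07 to 0.73.

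FPKM is scaled by length, and levels of different genes are set side by side here. Values still followed transcript length, with a slope that differed by group, so orders of genes of unlike length carry that limit. In control and in OGD the order of mean FPKM from the highest was IER3, IER2, EGR1, SRF, NR4A1, NR4A2 and NR4A3, and no neighbours in that order overlapped. In OGD/R, EGR1 (68.0 to 83.9 FPKM) passed IER2 (57.3 to 63.6), and NR4A1 (12.2 to 15.1) reached SRF (12.6 to 13.6), whose range overlapped its own. NR4A3 overlapped EGR2 in OGD, where both had libraries listed at 0. By rank among 15570 genes, EGR1 was 2480th in control, 4983rd in OGD and 1002nd in OGD/R, whereas IER3 stood at 385th, 361st and 210th.

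Ratios of 2 genes within a library do not depend on any scaling of that library as a whole, but they can still carry its length trend. EGR1 over IER2 was 0.443, 0.593 and 0.438 in control, 0.323, 0.387 and 0.338 in OGD, and 1.19, 1.44 and 1.22 in OGD/R. EGR1 thus exceeded IER2 in the OGD/R libraries alone. IER3 over IER2 was 2.72, 3.02 and 3.47 in control, 7.68, 9.50 and 10.1 in OGD, and 4.85, 5.60 and 4.72 in OGD/R, so these IER genes parted most in OGD. EGR1 over SRF was nearly constant in control (3.38, 3.40 and 3.54), was 1.59, 1.45 and 1.2 in OGD, and stood at 5.40, 6.18 and 5.97 in OGD/R. Its groups did not overlap in any pair.

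EGR1 over NR4A1 was 5.83, 10.5 and 6.95 in control, 7.70, 9.58 and 11.8 in OGD, and 5.56, 5.55 and 5.70 in OGD/R. The OGD/R libraries agreed closely and lay below all others, while control and OGD overlapped. Over 18 relations (each ratio in 3 comparisons) the log2 ratio was compared with a 2-sided exact permutation test. With 3 libraries against 3 the exact permutation test cannot go below p = 0.1, and 16 relations stood at that value (Benjamini-Hochberg adjusted p = 0.113), with no overlap of the groups. The exceptions were OGD against control for EGR1 over NR4A1 (exact p = 0.3, adjusted p = 0.318) and for NR4A1 over NR4A2 (exact p = 0.6, adjusted p = 0.600).

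**Figure D4:**
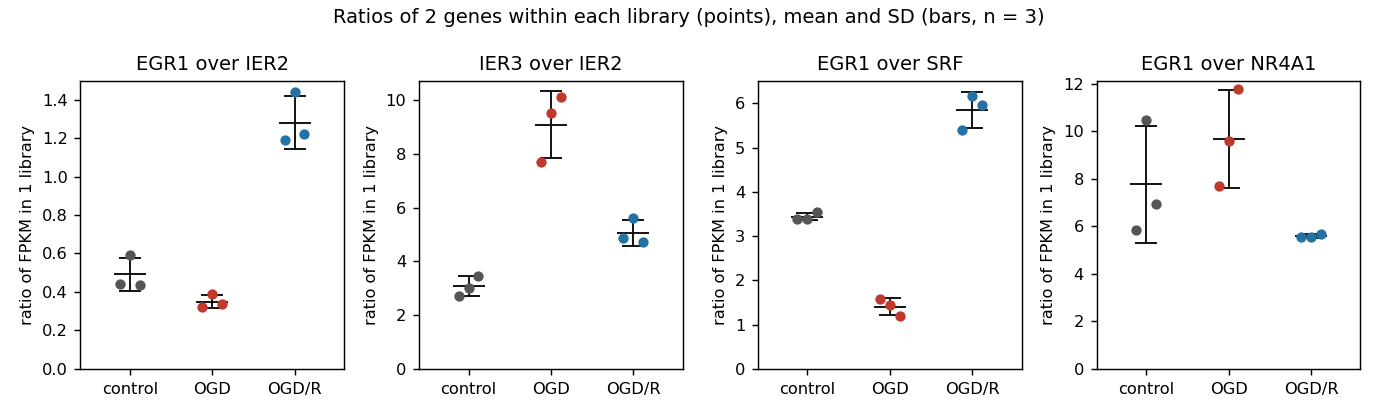
Ratio of the FPKM of 2 genes within each library (points, y axes from 0) by group, with mean and SD (bars, n = 3). EGR1 over IER2 exceeds 1 in OGD/R alone, IER3 over IER2 is highest in OGD (7.68 to 10.1), EGR1 over SRF is 1.2 to 1.59 in OGD, and EGR1 over NR4A1 is tightest in OGD/R (5.55 to 5.70).

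For each gene tested, the pair of genes with the most similar values was sought by Pearson r of log2(FPKM + 1) over the 9 libraries, among 7337 genes (7338 for NR4A2) with a mean of at least 5 FPKM. The libraries form 3 groups, so r mostly follows the group means, and it is given as a description. EGR1 was most like DIAPH1 (r = 0.9987), an actin-nucleating formin, with 12.7, 5.53 and 22.7 FPKM in control, OGD and OGD/R, and next like SLC15A3 (r = 0.9979), a lysosomal peptide transporter. NR4A1 was most like the taurine transporter gene SLC6A6 (0.9968) and the lysosomal phosphatase gene ACP2 (0.9965). NR4A2 was most like CTDSP2 (0.9951), a phosphatase gene, and TAP1 (0.9949), which loads peptides for antigen presentation. IER2 was most like RANBP6 (0.9969) and RAB15 (0.9915), IER3 like MICAL2 (0.9894), an actin-oxidising enzyme, and ARHGEF28 (0.9891), and SRF like TRIM28 (0.9957), a co-repressor, and ATXN2L (0.9950). EGR1, NR4A1, IER2, IER3 and SRF were in none of these pairs. NR4A2, NR4A3, EGR2 and EGR3 lay below the minimum of 5 FPKM and so could not be in one.

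The gene models share short structures in part. On GRCh38, EGR1 (NCBI Gene 1958, chromosome 5, 138465479 to 138469303), EGR2 (1959, chromosome 10, 62811996 to 62819167), EGR3 (1960, chromosome 8, 22687659 to 22693480) and IER3 (8870, chromosome 6, 30743199 to 30744547) have 2 exons in the chosen GENCODE 29 transcript, and IER2 (9592, chromosome 19, 13150411 to 13154911) has 1. The median of the genes tested was 9 exons. SRF (6722, chromosome 6, 43171269 to 43181506) has 7, NR4A1 (3164, chromosome 12, 52022832 to 52059503) and NR4A2 (4929, chromosome 2, 156324437 to 156332721) have 8, and NR4A3 (8013, chromosome 9, 99821885 to 99866891) has 9. IER3 has the shortest span, 1349 bases, shorter than that of all but 0.777% of the genes tested, against a median of 29720.5 bases.

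AU-rich elements in the 3′ untranslated region, built on the pentamer written ATTTA in DNA letters, are known to shorten the life of many early response messages. IER3 held 6 of these pentamers in 737 bases (8.14 per kb) and NR4A1 held 3 in 562 bases (5.34 per kb), against a median of 1.65 per kb over the genes tested. NR4A3 held 10 (3.31 per kb) and NR4A2 4 (3.05 per kb). EGR2 held 2, at the median of 1.65 per kb. SRF with 3 (1.29 per kb), EGR3 with 3 (1.07 per kb), EGR1 with 1 (0.81 per kb) and IER2 with 0 lay below it. IER3 was the densest in them, and 24.1% of the genes tested held at least as many. By position, genes named as antisense overlap IER3 (IER3-AS1) and NR4A1 (NR4A1AS). LOC124902934 and LOC107984510 also overlap NR4A1, and LOC107986924 overlaps EGR3. The strand of these overlapping genes was not compared. Whether strand was used in counting is not given in the sources used here, so reads of overlapping genes cannot be told apart.

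Genes that act with the set were described through 5 lists, without the 9 genes themselves and with counts over the members that passed the filter; each gene named from a list as rising or falling had a limma adjusted p under 0.05. The first list holds genes that signal to SRF, ELK and CREB factors. It also holds ELK and CREB factors themselves, coactivators, MEF2 factors and deacetylases. Of its 38 genes tested, 31 were lower and 0 higher in OGD (81.6% lower, against 46.7% of all genes). Their median was -0.60 beside -0.31 for all genes tested. In OGD/R 33 were higher and 0 lower than in OGD (86.8% higher against 53.3% of all genes, median 0.89 beside 0.39). Against control 10 were higher and 1 lower, and their 26.3% higher is near the 24.7% of all genes (2.63% lower against 16.5%). HDAC5, a deacetylase that restrains MEF2 factors, fell from 9.93 ± 3.17 to 3.17 ± 0.586 FPKM in OGD (SD, n = 3). MEF2D, itself such a factor, rose from 1.28 ± 0.243 in OGD to 7.23 ± 0.638 FPKM in OGD/R. With median-of-ratios scaling, 2 of these 38 were higher and 17 lower in OGD, where 26.5% of all genes were higher and 23.1% lower. In OGD/R against OGD that scaling gave 22 higher and 2 lower, where 32.6% of all genes were higher and 34.2% lower.

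Of the 9 tested partners of EGR and NR4A proteins, which include NAB1, NAB2 and RXRA, 6 were lower and 0 higher in OGD (66.7% lower against 46.7% of all genes, median -0.50 beside -0.31). In OGD/R against OGD 5 were higher and 0 lower, a share of 55.6% near the 53.3% of all genes (median 0.85 beside 0.39). Against control 2 were higher and 1 lower (22.2% higher against 24.7%, median -0.05 beside 0.07). SP3, a factor of GC-rich promoters, fell from 32.4 ± 7.23 to 14.9 ± 1.16 FPKM in OGD. PELP1, a nuclear receptor coregulator, rose from 3.88 ± 0.293 in OGD to 16.0 ± 0.372 FPKM in OGD/R. With quantile normalization 0 were higher and 2 lower in OGD, where 20.0% of all genes were higher and 22.4% lower. In OGD/R against OGD that setting gave 3 higher and 1 lower, where 31.4% of all genes were higher and 31.3% lower. With median-of-ratios scaling 0 were higher and 4 lower in OGD (23.1% of all genes lower), and 4 higher and 1 lower in OGD/R against OGD. Removal of the length trend gave 0 higher and 4 lower (23.0% of all genes lower), and then 5 higher and 3 lower.

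Of 21 known EGR1 targets of vascular cells, 8 were lower and 2 higher in OGD (38.1% lower against 46.7% of all genes, median -0.21 beside -0.31), and 4 were lower and 6 higher with median-of-ratios scaling, 4 lower and 2 higher with quantile normalization, and 4 lower and 4 higher with the length trend removed. In OGD/R, 18 were higher and 1 lower than in OGD (85.7% higher against 53.3%, median 0.86 beside 0.39), and against control 13 were higher and 1 lower (61.9% higher against 24.7%, median 0.60 beside 0.07). TGFB1, a cytokine gene, fell in OGD from 14.1 ± 2.19 to 5.73 ± 0.298 FPKM, then rose to 26.2 ± 2.07 FPKM with OGD/R. CD44, the hyaluronan receptor, rose instead in OGD, from 45.3 ± 1.16 to 110 ± 5.67 FPKM. SOD1, a superoxide dismutase, fell from 333 ± 13.2 in OGD to 237 ± 20.6 FPKM in OGD/R.

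Among targets of SRF and MRTF, most of them cytoskeletal, 12 of 23 were lower and 2 higher in OGD. Their 52.2% lower is near the 46.7% of all genes, and their median was -0.32 beside -0.31. The lean depended on scaling: 4 were lower and 8 higher with median-of-ratios scaling, 10 lower and 4 higher with quantile normalization, and 4 lower and 7 higher with the length trend removed. In OGD/R 18 were higher and 1 lower than in OGD (78.3% higher against 53.3% of all genes, median 0.77 beside 0.39), and 18 were higher and 1 lower than in control (78.3% higher against 24.7% of all genes, median 0.67 beside 0.07). TAGLN (transgelin, an actin-binding protein) rose in OGD from 53.6 ± 6.46 to 174 ± 4.08 FPKM, then fell to 123 ± 2.6 FPKM with OGD/R. TLN1, which encodes talin, rose from 3.93 ± 0.247 in OGD to 25.5 ± 2.48 FPKM in OGD/R. The largest fall of this list in OGD was that of JUNB, an AP-1 factor gene and not a cytoskeletal one, which is also in the list of other immediate early genes (from 92.3 ± 20.7 to 24.1 ± 1.03 FPKM).

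Of 36 other immediate early genes, 25 were lower and 6 higher in OGD (69.4% lower against 46.7% of all genes, median -0.56 beside -0.31), or 16 lower and 9 higher with median-of-ratios scaling (23.1% of all genes lower, 26.5% higher). In OGD/R 30 were higher and 0 lower than in OGD (83.3% higher against 53.3%, median 1.08 beside 0.39). Against control 25 were higher and 1 lower (69.4% higher against 24.7%, median 0.60 beside 0.07). HES1, a Notch-responsive repressor, rose from 7.59 ± 0.652 in OGD to 59.2 ± 8.67 FPKM in OGD/R. SGK1, a kinase gene, had the largest rise of this list in OGD, from 7.12 ± 1.44 to 20.4 ± 0.631 FPKM. Some genes stand in more than 1 of these lists, and the lists were chosen with earlier results of these data known.

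**Figure D5:**
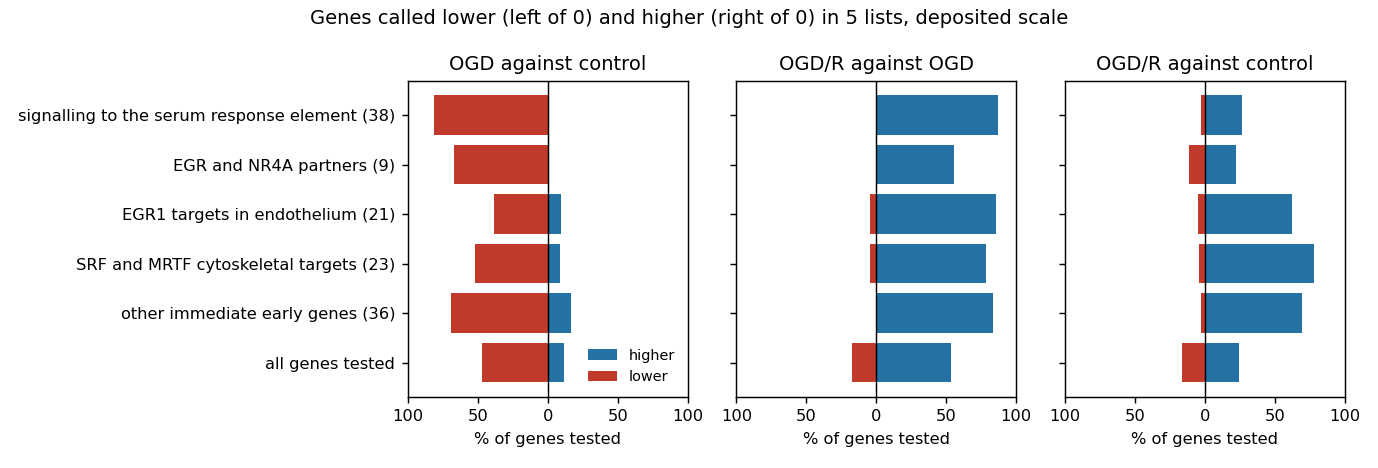
Percent of the tested genes of 5 lists, and of all 10818 genes tested, called lower (left) or higher (right) at an adjusted p under 0.05 on the deposited scale, by comparison; numbers of genes tested are in parentheses. Against control, OGD/R has 78.3% of SRF and MRTF targets and 69.4% of other immediate early genes higher, against 24.7% of all genes; in OGD the lists of EGR1 and SRF targets lean the other way with median-of-ratios scaling (6 higher and 4 lower, 8 higher and 4 lower) but not with quantile normalization (2 higher and 4 lower, 4 higher and 10 lower).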

How the data were processed

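RNA from 9 libraries (3 per group) was made into mRNA libraries with a SMARTer kit, per the labels' protocols. The authors deposited FPKM values for 15570 genes, on GRCh38 per the submitters' processing notes. Aligner, counter, annotation and use of strand: not given in the sources used here. Groups and replicate numbers follow the titles. Separate cultures are not stated, so the p-values refer to spread among these libraries, and that spread may be technical. Read depth is unknown, so no counting interval was computed.

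The filter kept genes that reached 1 FPKM in 3 or more of the 9 libraries (10818 of 15570, with 6 of the 9 genes described). Values were tested as log2(FPKM + 1) in 1 limma 3.58.1 fit of 3 groups (R 4.3.3, eBayes with trend, 6 residual and 6.33 prior degrees of freedom), 2-sided, with Benjamini-Hochberg adjustment over all genes tested and a threshold of 0.05. The fit was also run on simulated data with independent noise and few changed genes. In these data far more genes were called, so that run does not bear on the scaling of the libraries. Ratios were tested by exact permutation (scipy 1.17.1), and figures drawn with matplotlib 3.10.9 in Python 3.11.15. Start sites, windows and positions are from RefSeq (GRCh38.p14), and transcripts from GENCODE 29, the APPRIS principal and longest coding transcript per gene. The length trend used the median coding transcript, known for 99.4% of genes.

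The genes described and all lists were chosen with earlier results of these data known. The rule for named genes took all 9 genes, the 2 most similar genes of each one tested, and the called list members with the largest rise and fall in OGD against control and in OGD/R against OGD. Alternatives were another pseudocount, no expression filter, median-of-ratios scaling, quantile normalization, removal of the length trend, a replicate block, a robust prior and leaving out each library.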

Additional observations from a re-analysis of the deposited data

How the results depend on the processing

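Each of 18 gene and comparison values was recomputed under 16 alternatives, 288 values in all. Some alternatives cannot move a fold change and alter only its adjusted p. They are the absence of a filter, the replicate block, the robust prior and leaving out a library of the group not compared. Of these, 274 kept their direction and side of the threshold, 9 kept their sign but lost a call, 3 gained one and 2 turned sign. The 2 that turned were IER3 from OGD to OGD/R with median-of-ratios scaling (-0.07) and IER2 in OGD/R against control without control replicate 1, neither of them called there. IER3 thereby lost its call as well (limma adjusted p = 0.00634 on the deposited scale, 0.562 with that scaling). Leaving out 1 library at a time moved that IER2 value between -0.20 and 0.10. The 9 calls lost with the sign kept were 7 of SRF over the 3 comparisons and 2 of NR4A2 in OGD/R against control. The 3 gained were IER3 in OGD against control. The cause was not tested. The number of all genes called stayed within 1.5 times of the main count under every alternative, at 4593 to 6692 in OGD against control, 6741 to 7964 in OGD/R against OGD and 3318 to 4898 in OGD/R against control. Depth is unknown, so the precision of NR4A3, EGR2 and EGR3 cannot be given.

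The replicate number of the titles was also fitted as a block. It left 5, 6 and 5 of the 6 genes called in the 3 comparisons, as without it, and 5956, 7452 and 4128 of all genes. Same-numbered libraries did not deviate together (r of deviations from group means between -0.200 and 0.148, over 0.1 in 1 of 9 pairs), and 2 of 9 libraries correlated best with their own number, so the numbers are read as names only.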
